A study of Mus musculus with 10 samples.

Results

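The 10 genes described here form the core and a first output of the circadian clock: the activators Arntl (also called Bmal1), Clock and Npas2, the repressors Per1, Per2, Per3 and Cry1, the nuclear receptors Nr1d1 and Nr1d2 (Rev-erb alpha and beta), and the output gene Dbp. They were taken by name from a table of 55401 genes, each matched by its Ensembl identifier, and all 10 were among the 14098 genes with enough counts to be tested. The table came from liver RNA of 10 female mouse fetuses at E18.5 on a C57BL/6J background, profiled as polyA RNA with 1 library per fetus. In 5 fetuses Mir483, a microRNA gene inside Igf2, was deleted from the chromosome inherited from the father (Mir483Pat-KO, written KO for single libraries and groups). The other 5 were WT littermates. The deletion was made by Cre recombination in C57BL/6N embryonic stem cells of 2 independent clones and is carried in every cell, the selection cassette having been excised. Which clone each fetus descends from, which fetuses shared a litter, and the time of day at which the livers were collected are not given in the sources used here. The mice were housed with 12 h of light and 12 h of dark. The comparison asks whether the activator arm and the repressor arm of the clock moved in opposite directions between genotypes, as they do between phases of the day.

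In the mammalian clock, ARNTL pairs with CLOCK or NPAS2 and binds E-box sequences to switch on the Per, Cry, Nr1d and Dbp genes. PER and CRY proteins then accumulate and shut off that activity, while the NR1D receptors repress Arntl, Npas2 and Cry1 through RORE elements, in competition with the ROR receptors. In adult liver these genes cycle strongly, with Arntl near its peak when Nr1d1 and Dbp are near their trough. In the fetus, maternal signals reach the liver, and Per1 is also induced directly by glucocorticoids and by cAMP, independently of the loop.

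The sequences through which this loop acts can be read in the promoters of the members. Windows from 250 bases before to 50 bases after annotated starts (RefSeq, GRCm38.p6) were available for 9 of the 10 members, all but Per2. Each was searched on both strands for the E-box (CACGTG), the E′-box (CACGTT), the cAMP response element (TGACGTCA), the D-box bound by DBP (TTATGTAA or TTACGTAA) and the core of the RORE (TAGGTCA, its variant TGGGTCA or its variant TAGGTTA). The windows of Per1, Cry1, Nr1d1 and Arntl are shown, since these genes stand for the activator, repressor and receptor arms of the loop. For Per1 and Arntl, which have 2 annotated windows each, the window with more matches is shown. They run 5′ to 3′ on the strand of the gene, with every match in capitals.
Per1, chr11:69098699-69098998, plus strand: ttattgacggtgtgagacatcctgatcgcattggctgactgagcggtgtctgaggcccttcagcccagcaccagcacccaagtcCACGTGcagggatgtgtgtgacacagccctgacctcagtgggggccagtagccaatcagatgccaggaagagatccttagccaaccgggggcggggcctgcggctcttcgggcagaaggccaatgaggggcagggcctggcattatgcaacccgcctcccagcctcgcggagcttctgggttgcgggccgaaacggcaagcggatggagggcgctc
Cry1, chr10:85185005-85185304, minus strand: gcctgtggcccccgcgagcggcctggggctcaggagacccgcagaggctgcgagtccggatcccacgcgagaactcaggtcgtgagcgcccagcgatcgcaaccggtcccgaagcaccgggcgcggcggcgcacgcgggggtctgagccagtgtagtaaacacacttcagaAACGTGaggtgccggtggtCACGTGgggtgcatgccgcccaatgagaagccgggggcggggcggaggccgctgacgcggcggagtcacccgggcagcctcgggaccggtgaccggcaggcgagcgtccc
Nr1d1, chr11:98775328-98775627, minus strand: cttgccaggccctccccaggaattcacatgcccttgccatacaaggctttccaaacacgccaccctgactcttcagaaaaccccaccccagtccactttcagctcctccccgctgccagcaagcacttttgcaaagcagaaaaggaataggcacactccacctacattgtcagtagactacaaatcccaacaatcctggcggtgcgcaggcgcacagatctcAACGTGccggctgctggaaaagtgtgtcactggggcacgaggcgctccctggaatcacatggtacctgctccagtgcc
Arntl, chr7:113207261-113207560, plus strand: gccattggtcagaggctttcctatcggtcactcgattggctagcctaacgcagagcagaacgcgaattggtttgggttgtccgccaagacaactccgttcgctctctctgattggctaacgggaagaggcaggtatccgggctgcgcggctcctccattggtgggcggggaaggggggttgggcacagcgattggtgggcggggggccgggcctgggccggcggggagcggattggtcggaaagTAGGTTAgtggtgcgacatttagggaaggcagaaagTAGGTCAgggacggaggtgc

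The Per1 window shown held an E-box beginning 166 bases before the start, and a second annotated Per1 window, at chr11:69099902-69100201, held 0 matches. The Cry1 window held an E-box at −60 and, on the other strand, an E′-box at −79, both in a window of 72.3% G and C. Nr1d1 held an E′-box at −28 on the other strand, so that the strand shown reads AACGTG. In the Arntl window shown, 2 RORE cores lay at −6 and +31. A second Arntl window overlaps it and held the first of these same sites, there counted as +41. Across all 32851 windows of 27025 genes, 7.15% held an E-box, 4.68% an E′-box, 7.81% a RORE core, 1.79% a cAMP response element and 1.06% a D-box. Per3 held 2 D-boxes, at −205 and −158. No match was found in the windows of Clock, Npas2, Nr1d2 and Dbp. These matches describe letters in a window and not bound sites, and no binding was measured in these samples.

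The microRNA that was deleted is shown next, because its loss is the difference between the genotypes. Its gene lies at chr7:142654924-142654996 on the minus strand, and both mature arms are given from RefSeq with the seed, bases 2 to 8, in capitals.
miR-483-3p, chr7:142654932-142654952: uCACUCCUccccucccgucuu
miR-483-5p, chr7:142654968-142654989: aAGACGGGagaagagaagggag
Among the longest annotated 3′ UTRs of the 10 members, 1 held a match to the miR-483-3p seed and 0 held a match to the miR-483-5p seed. The match is in Per2, at position 293 of 1889 and at chr1:91417572-91417578 on the minus strand (GRCm38), in the last exon. It is shown in capitals with its neighbouring bases.
Per2, chr1:91417561-91417589: tcatggtcctcAGGAGTGtcttgacctcc
Over all tested genes with an annotated 3′ UTR, 12.6% of 12875 held a 3p match and 3.28% a 5p match, so a single match among 10 genes is near the share of all genes. Whether the match in Per2 bears on its level was not tested.

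The depth of the libraries ranged from 10831350 to 14765880 counts. Mir483 itself was listed with 11, 10, 22, 21 and 12 counts in WT replicates 1 to 5 and with 0 counts in all 5 KO libraries. Set against a floor of 3 counts per library, at most 0.271 CPM (counts scaled to library size, with the usual TMM factors) in KO, its WT mean of 1.17 ± 0.392 CPM (SD, n = 5) was at least 4.32-fold higher. Hepatocyte markers such as Alb and Afp were abundant in every library, and none of the markers listed for 6 cell types was at 0. Over all genes tested, 731 passed an adjusted p of 0.05 in edgeR's quasi-likelihood test, 342 higher and 389 lower in KO, and the median log2 fold change was 0.0042. The identification numbers in the labels fall into a lower range, with WT replicates 1 to 4 and KO replicates 1 and 2, and an upper range, with WT replicate 5 and KO replicates 3 to 5. What the numbers stand for is not stated. The library indexes, 53 to 57 for WT and 60 to 64 for KO, cannot be told apart from genotype.

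Per1 and Per2 were the members that passed, and both were lower in KO. Thus 2 of the 10 members passed lower, where 2.76% of all genes did, and 0 passed higher, where 2.43% did. Before adjustment 4 of the 10 had a p under 0.05 (Per1, Per2, Cry1 and Nr1d1), against 3128 of all 14098 genes. With a fold change over 1.5 asked for as well, the threshold that the study used, 0 members passed, where 0.355% of genes were higher and 0.872% lower. The members' log2 fold changes were positive for 4 and negative for 6, with a median of −0.10. In bulk tissue a lower level in every cell and a smaller share of expressing cells cannot be told apart.

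**Figure D1:**
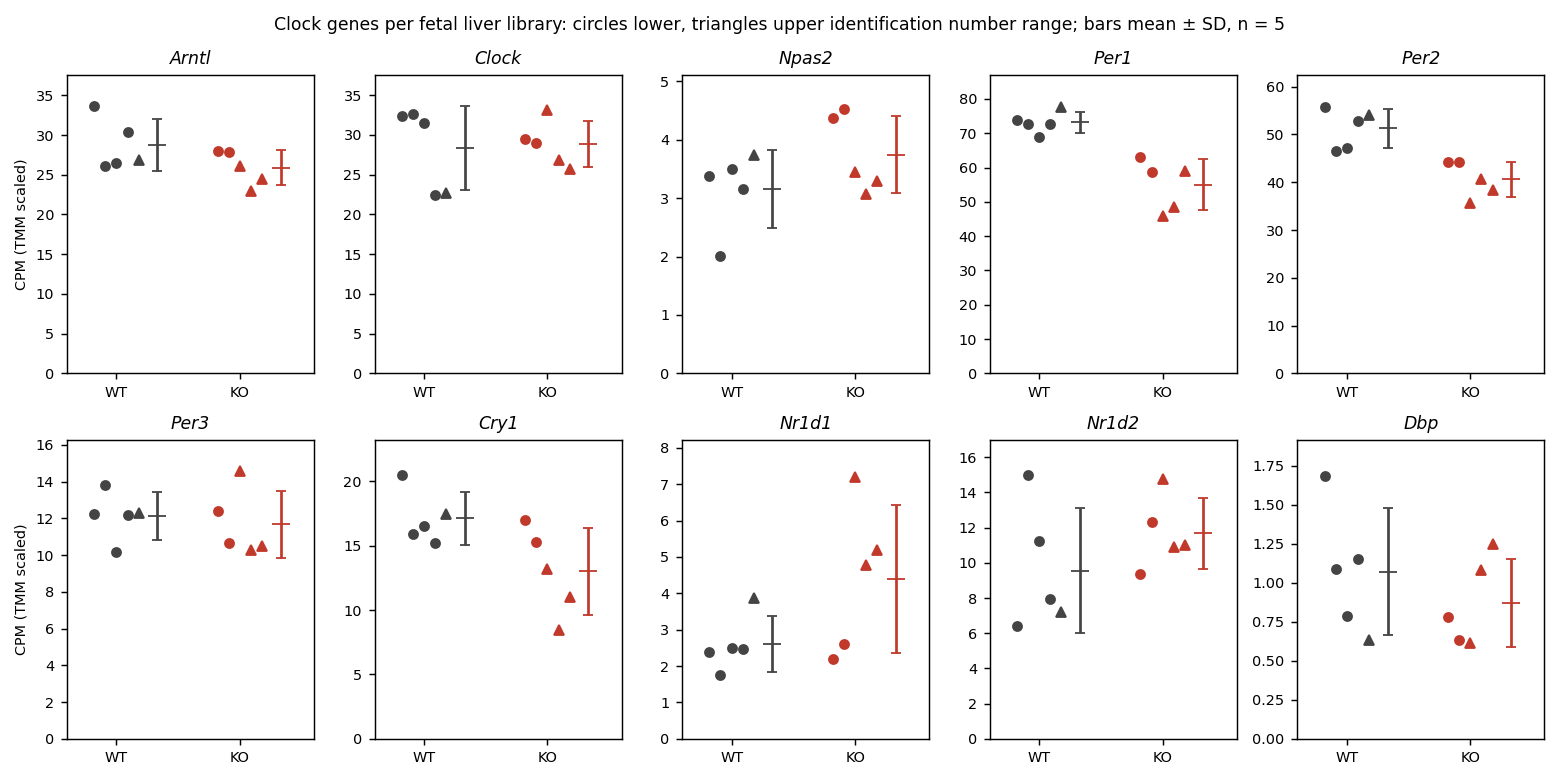
CPM of each clock gene in each library, with WT in grey and Mir483Pat-KO (KO) in red, circles for the lower and triangles for the upper identification number range, and bars for the mean ± SD of 5 libraries. The groups separate fully for Per1 and Per2, and the triangles of Nr1d1 lie above its circles in both genotypes.

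Per1 (ENSMUSG00000020893, chr11:69095217-69109960, plus strand) encodes a PER repressor that responds to light, feeding and hormone signals. Its level was 74.0, 72.6, 68.9, 72.7 and 77.6 CPM in WT replicates 1 to 5 and 63, 58.6, 45.8, 48.5 and 58.9 CPM in KO replicates 1 to 5. Every KO library lay below every WT library, with no overlap. The mean was 73.1 ± 3.13 CPM in WT and 55 ± 7.39 CPM in KO (SD, n = 5), a log2 fold change of −0.41 (SE 0.0847, 95% interval −0.59 to −0.23, adjusted p = 0.0129) and a ratio of 0.752. Among all genes it ranked 184 by p. The WT libraries differed little among themselves, with a coefficient of variation of 4.28%, and the KO libraries varied more, at 13.5%.

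Per2 (ENSMUSG00000055866, chr1:91415982-91459324, minus strand) encodes the PER protein most closely tied to the period of the loop. It measured 55.9, 46.5, 47.3, 52.8 and 54 CPM in the WT libraries and 44.2, 44.3, 35.7, 40.6 and 38.4 CPM in the KO libraries, in replicate order. Here too the groups did not overlap, although the highest KO value and the lowest WT value were only a few CPM apart. The means were 51.3 ± 4.16 and 40.6 ± 3.71 CPM (SD, n = 5), with a log2 fold change of −0.34 (SE 0.0794, 95% interval −0.50 to −0.17, adjusted p = 0.0248) and a ratio of 0.792. Complete separation with KO below WT was found for these 2 members and for 3.26% of all genes, and separation in the other direction for 0 members and 3.34% of all genes.

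The call of Per2 was the less stable. It was lost in 7 of 20 alternative fits, 5 of which left out WT replicate 4 or 5 or KO replicate 3, 4 or 5, with adjusted p-values of 0.0508 to 0.0585 and log2 fold changes of −0.34 to −0.30. Per1 kept its call whichever library was left out. Both calls were lost when smooth trends in GC content and gene length were removed from each library, at −0.27 for Per1 (adjusted p = 0.0758) and −0.25 for Per2 (adjusted p = 0.0736). Both were also lost in the 4 WT and 2 KO libraries of the lower range alone, at −0.25 (adjusted p = 0.220) and −0.20 (adjusted p = 0.402). With the range as a term in the model, both passed, at −0.38 (adjusted p = 0.0192) and −0.31 (adjusted p = 0.0343).

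Per3 (ENSMUSG00000028957, chr4:151003652-151044665, minus strand), the member of the family that contributes least to keeping the loop running, differed less between the genotypes. Its level spanned 10.2 to 13.8 CPM in WT, with a median of 12.3, and 10.3 to 14.6 CPM in KO. The ranges lay almost on top of each other, and the means were 12.1 ± 1.30 and 11.7 ± 1.82 CPM (SD, n = 5). The log2 fold change was −0.05, with a 95% interval of −0.30 to 0.19 (adjusted p = 0.830), and its sign turned under the GC content and length offsets (0.0077). With 1 library left out it ran from −0.16 (without KO replicate 3) to −0.0079 (without WT replicate 2). Whether Per3 differed from Per1 and Per2 in its response was not tested.

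Cry1 (ENSMUSG00000020038, chr10:85131700-85185064, minus strand) encodes the cryptochrome that acts late in the repressive phase. It measured 20.5, 15.9, 16.5, 15.2 and 17.5 CPM in WT replicates 1 to 5 and 17.0, 15.3, 13.2, 8.48 and 11 CPM in KO replicates 1 to 5. KO replicates 1 and 2 fell within the WT range, whereas replicates 3 to 5 lay below it. The means of 17.1 ± 2.06 and 13.0 ± 3.39 CPM (SD, n = 5) gave a log2 fold change of −0.39 (SE 0.149, 95% interval −0.71 to −0.08), close to that of Per1 but not past the adjusted threshold (adjusted p = 0.131). In the lower range alone the difference was −0.08 (adjusted p = 0.852). Without KO replicate 1 the gene passed (−0.52, adjusted p = 0.0477), as it did without the low-count filter (adjusted p = 0.0337). It also passed with the replicate number as a block (adjusted p = 0.0323).

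Among the activators no difference passed. Arntl (ENSMUSG00000055116, chr7:113207465-113314126, plus strand), the one activator without which the loop stops, had 33.7, 26.1, 26.5, 30.4 and 26.8 CPM in WT replicates 1 to 5 and 28.0, 27.9, 26.1, 22.9 and 24.5 CPM in KO replicates 1 to 5. The groups overlapped, with 3 of the KO libraries below the lowest WT library. The means were 28.7 ± 3.25 and 25.9 ± 2.21 CPM (SD, n = 5), and the log2 fold change of −0.15 had a 95% interval of −0.34 to 0.04 (adjusted p = 0.358). Without WT replicate 1 it was −0.09, and in the lower range alone −0.06 (adjusted p = 0.863).

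Clock (ENSMUSG00000029238, chr5:76209868-76304792, minus strand), the usual partner of ARNTL, had 22.5 to 32.7 CPM in WT and 25.7 to 33.2 CPM in KO. In WT the values formed a high set of 3 libraries and a low pair, replicates 4 and 5 at 22.5 and 22.7 CPM. The log2 fold change was 0.03 (95% interval −0.22 to 0.27, adjusted p = 0.917), and its sign turned in 5 of the 20 alternatives. Npas2 (ENSMUSG00000026077, chr1:39193731-39363236, plus strand), which can stand in for CLOCK, was much less abundant. It had 2.01 to 3.73 CPM in WT and 3.07 to 4.52 CPM in KO, where replicates 1 and 2 exceeded every WT library. Its log2 fold change was 0.24 (95% interval −0.16 to 0.64, adjusted p = 0.487), with 0.55 in the lower range alone, 0.11 without WT replicate 2 and 0.15 without KO replicate 2.

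Nr1d1 had the largest fold change of the 10 and did not pass. This gene (ENSMUSG00000020889, chr11:98767932-98775333, minus strand) encodes the receptor that represses Arntl. It measured 2.40, 1.76, 2.503, 2.46 and 3.88 CPM in WT replicates 1 to 5 and 2.19, 2.62, 7.20, 4.78 and 5.20 CPM in KO replicates 1 to 5, from 21 to 94 counts per library. KO replicates 1 and 2 lay among the WT values, and replicates 3 to 5 lay above all of them. The means were 2.60 ± 0.775 and 4.40 ± 2.04 CPM (SD, n = 5), a log2 fold change of 0.75 (SE 0.293, 95% interval 0.13 to 1.37, adjusted p = 0.144). Without KO replicate 3 it was 0.49, the lowest of the fits without 1 library, and without WT replicate 5 it was 0.94, the highest. Of the 20 alternatives it passed in the one without a low-count filter (adjusted p = 0.0222). Of its exonic bases, 8.55% overlap Thra on the opposite strand, and the strand setting of the counting is not stated.

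Nr1d2 (ENSMUSG00000021775, chr14:18204054-18239127, minus strand), the related receptor, had 6.39 to 15.0 CPM in WT and 9.37 to 14.8 CPM in KO. The KO libraries all lay within the wide WT range, whose coefficient of variation was 37.3%. Its log2 fold change was 0.29 (95% interval −0.12 to 0.70, adjusted p = 0.407). It was 0.50 without WT replicate 2 and 0.18 without WT replicate 1 or KO replicate 3. Over the 20 alternatives its lowest value was 0.09, and the lower-range means were 10.1 CPM in WT and 10.8 CPM in KO. Dbp (ENSMUSG00000059824, chr7:45705088-45710203, plus strand), a transcription factor that carries the rhythm to liver metabolic genes through D-boxes, was close to the limit of detection. It had 8 to 19 counts per library, or 0.634 to 1.69 CPM in WT and 0.613 to 1.25 CPM in KO, and its log2 fold change of −0.26 had a 95% interval of −0.94 to 0.41 (adjusted p = 0.675). With 1 library left out it ran from −0.45 (without KO replicate 5) to −0.06 (without WT replicate 1). Over 19 alternatives its lowest value was −0.72, and the lower-range means were 1.18 CPM in WT and 0.708 CPM in KO. For Dbp, 18% of the exonic bases overlap Sphk2 on the opposite strand.

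**Figure D2:**
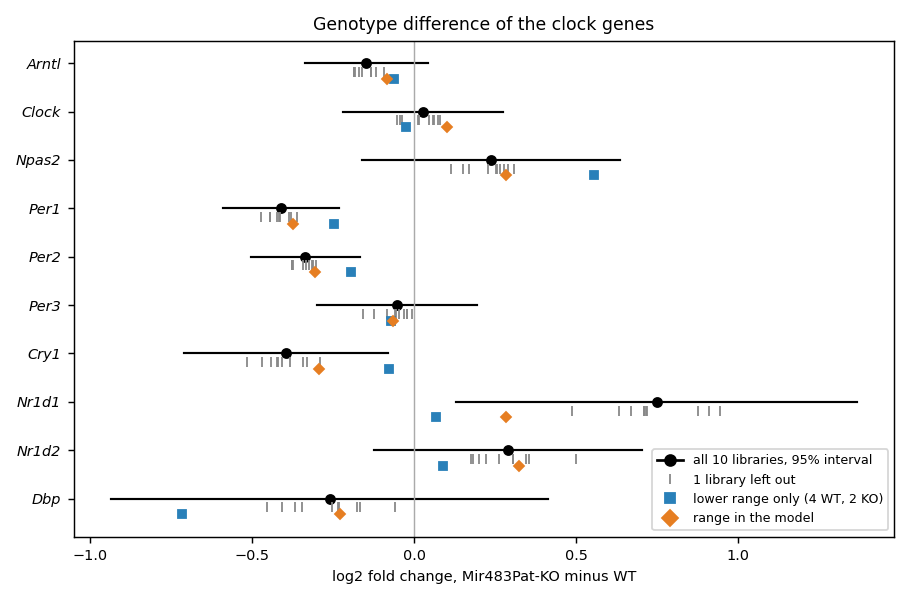
Log2 fold change of each clock gene, KO minus WT, as a black point with its 95% interval, with grey ticks for fits without 1 library, blue squares for the lower range alone and orange diamonds for the fit with the range as a term. The intervals of Per1, Per2, Cry1 and Nr1d1 leave out 0, and the blue square of Nr1d1 lies at 0.07 against 0.75 in all libraries.

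Nr1d1 varied with the identification number range in both genotypes. In the lower range the 4 WT libraries had a mean of 2.28 CPM and the 2 KO libraries a mean of 2.40 CPM. In the upper range the single WT library had 3.88 CPM and the 3 KO libraries 4.78 to 7.20 CPM. All 4 upper-range libraries thus lay above all 6 lower-range libraries, 3.88 to 7.20 against 1.76 to 2.62 CPM. Nr1d1 was the single member with such a separation, which was found for 1.21% of all genes in that direction and for 0.851% in the other, with 0 members in the other. In a fit with range and genotype together, whose test of range was chosen after these values were seen, Nr1d1 was higher in the upper range by 1.05 on the log2 scale (SE 0.203, 95% interval 0.62 to 1.48, adjusted p = 0.0923) and ranked 15 of all genes by p. It did not pass, and neither did any other member, where 0.0142% of genes passed higher and 0.00709% lower. In that fit the genotype difference of Nr1d1 was 0.28 (adjusted p = 0.418). Within the lower range alone it was 0.07 (adjusted p = 0.944).

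Cry1 showed the opposite arrangement in part. It had 15.2 to 20.5 CPM in the 6 lower-range libraries, 17.5 CPM in the upper-range WT library and 8.48 to 13.2 CPM in the 3 upper-range KO libraries. The low values were therefore shared by upper-range KO libraries and not by upper-range WT, which is a single library. The range term for Cry1 was −0.31 (95% interval −0.61 to 0.0048, adjusted p = 0.356). For Per1 and Per2 the KO values lay below the WT values within each range. This follows from their separation over all 10 libraries and is not a further result. In the lower range Per1 had 68.9 to 74.0 CPM in WT and 58.6 to 63 CPM in KO, and in the upper range 77.6 CPM in WT and 45.8 to 58.9 CPM in KO. Per2 had 46.5 to 55.9 against 44.2 to 44.3 CPM in the lower range and 54 against 35.7 to 40.6 CPM in the upper range. For both genes the gap between genotypes was wider in the upper range, a difference that was not tested and that rests on 1 WT library.

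**Figure D3:**
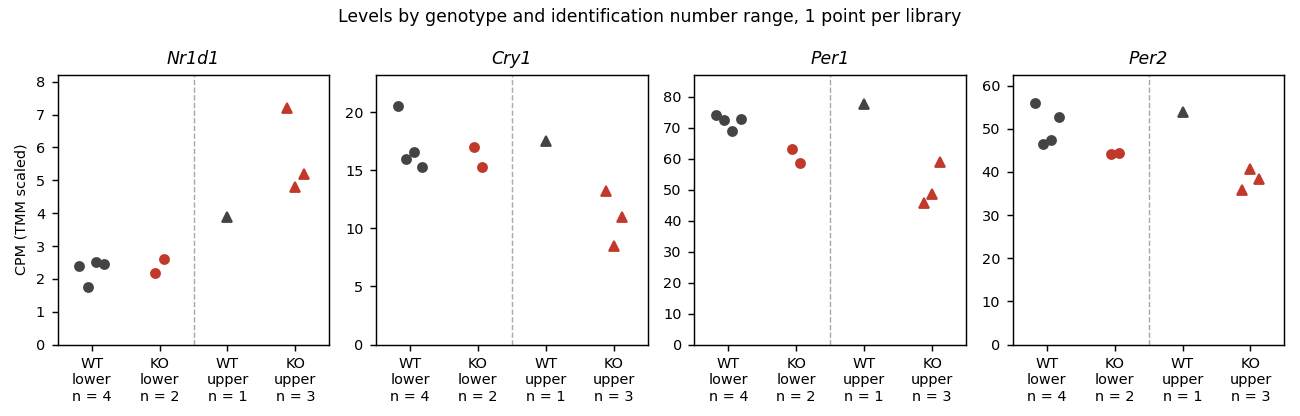
CPM of Nr1d1, Cry1, Per1 and Per2 with the libraries split by genotype (grey WT, red KO) and by identification number range, 1 point per library. Nr1d1 is high in all 4 upper-range libraries of either genotype. The KO points of Per1 and Per2 lie below the WT points on both sides of the dashed line, which follows from their separation over all 10 libraries.

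Other measures also moved with genotype or range, and their part in these results was not tested. The share of counts from globin genes was 1.19% to 1.61% in WT, 1.42% and 1.63% in KO replicates 1 and 2, and 1.99% to 2.21% in KO replicates 3 to 5. The summed level of 9 erythroid markers was 16068 to 20731 CPM in WT and 18735 to 26620 CPM in KO, with 1 of the 9 markers passing as higher (Hbb-bs), beside 2.43% of all genes. Of the 9, 8 had a positive log2 fold change (all but Klf1), with a median of 0.23, and the same 8 had an unadjusted p under 0.05, beside 3128 of all 14098 genes. In the upper range the sum was 16472 CPM in the single WT library and 24827 to 26620 CPM in KO. The 7 hepatocyte markers summed to 199510 to 220570 CPM in WT and 181700 to 212780 CPM in KO, with 0 passing. In KO that sum was 203100 to 212780 CPM in the lower range and 181700 to 186650 CPM in the upper, where the WT library had 220570 CPM. Of the 7, 5 had a negative log2 fold change and 3 an unadjusted p under 0.05, and Hnf4a did not overlap between genotypes (−0.24, adjusted p = 0.0540). Complete separation was also found for the erythroid marker Epb42 (0.19, adjusted p = 0.138) and the endothelial marker Pecam1 (−0.20, adjusted p = 0.0884). Over all genes it was found for 3.34% with KO above WT and 3.26% with KO below. The sums of the 7 macrophage, 6 endothelial, 6 mesenchymal and 6 granulocyte and megakaryocyte markers overlapped between genotypes. Of these markers 1 passed as lower, the macrophage marker Clec4f, beside 2.76% of all genes, and 0 others passed. The mesenchymal markers summed to 501 to 899 CPM in WT and 450 to 676 CPM in KO, with 5 of 6 negative, a median log2 fold change of −0.39 and 3 of 6 with an unadjusted p under 0.05. The endothelial sum was 407.7 to 464.3 CPM in WT and 359.3 to 445.4 CPM in KO, with 5 of 6 negative, a median of −0.16 and 1 of 6 with an unadjusted p under 0.05.

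Levels were compared between members per kilobase of exon. In WT the order was Per1 (13.0 CPM per kb), Per2 (8.76), Cry1 (5.13), Arntl (3.82), Clock (2.06), Nr1d2 (1.77), Per3 (1.26), Nr1d1 (0.845), Npas2 (0.659) and Dbp (0.358). The first 4 were separated from their neighbours in all 5 libraries, and from Clock downwards each range overlapped the next. In KO the first 4 kept that order, from 9.76 CPM per kb for Per1 to 3.44 for Arntl, but Cry1 (3.89) overlapped Arntl. Nr1d1 stood at 1.43 CPM per kb there, above Per3 at 1.21, with overlapping ranges. Dbp was the least abundant member in both genotypes.

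The 2 arms were also set against each other within each library, as the mean log2 CPM of Arntl, Clock and Npas2 minus that of Per1, Per2, Per3, Cry1, Nr1d1 and Nr1d2. The difference was −0.25 ± 0.165 in WT and −0.16 ± 0.154 in KO (SD, n = 5), higher by 0.09, which is less than the spread between libraries. The mean of the 3 activators differed by 0.05 and that of the other 6 genes by −0.04. Each mean joins genes with estimates of both signs, among the 6 Per1 at −0.41 and Nr1d1 at 0.75, so it describes no shift common to its genes. Arntl minus Nr1d1, the pair that stands in antiphase in the adult liver, was 3.42 ± 0.420 in WT and 2.64 ± 0.775 in KO. The lowest values were 1.84, 2.22 and 2.20 in KO replicates 3 to 5 and 2.74 in WT replicate 5, the 4 upper-range libraries. Arntl minus Dbp was 4.61 ± 0.354 and 4.70 ± 0.490, and the groups overlapped. A later or earlier phase moves Nr1d1, Dbp and the Per genes in adult liver in an ordered way, and these 10 livers hold no time series against which such an order could be read.

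Members were then compared over the 10 libraries after the mean of each genotype was removed. Of 45 pairs, 0 passed after adjustment, and 3 had an exact permutation p under 0.05 (two-sided, residuals exchanged within genotype). Arntl and Cry1 had the highest coefficient (Pearson r = 0.748, exact permutation p = 0.00646, adjusted p = 0.152; Spearman rho = 0.733, exact permutation p = 0.0161), with r = 0.634 when the 2 libraries farthest from the median of Arntl were left out and r = 0.648 in the 6 lower-range libraries. Per2 and Nr1d2 had the lowest (r = −0.798, exact permutation p = 0.00674, adjusted p = 0.152; rho = −0.721, exact permutation p = 0.0219), with r = −0.658 without 2 libraries and −0.928 in the lower range. Npas2 and Cry1 had r = 0.612 (exact permutation p = 0.0365, adjusted p = 0.509; rho = 0.721, exact permutation p = 0.0438), which stood at 0.628 without 2 libraries and at 0.338 in the lower range. Per1 and Per2 had r = 0.647 (exact permutation p = 0.0792, adjusted p = 0.509; rho = 0.661, exact permutation p = 0.0723), with r = 0.330 without 2 libraries and 0.477 in the lower range. The upper range, with 4 libraries, was too small for a value. Arntl and Nr1d1, which are in antiphase in cycling tissue, had r = −0.362 (exact permutation p = 0.3, adjusted p = 0.619; rho = −0.430, exact permutation p = 0.244), and −0.209 without 2 libraries. In the lower range alone the sign of that pair was positive (r = 0.447).

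**Figure D4:**
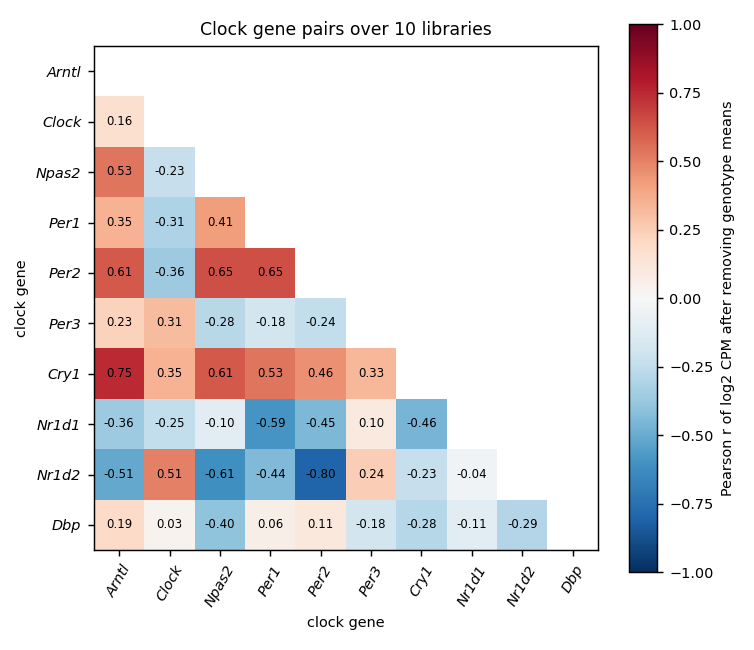
Pearson r of every pair of clock genes over 10 libraries, from log2 CPM after the mean of each genotype was removed, in blue for negative and red for positive values. The strongest cells are Per2 with Nr1d2 (−0.80) and Arntl with Cry1 (0.75), and 0 of the 45 pairs passed after adjustment.

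Over the same 10 libraries, with genotype means removed, the 5 genes whose log2 CPM was most like that of Arntl were Pde10a (r = 0.927), Orm1 (0.927), Dach1 (0.921), Ppif (0.913) and Rcsd1 (0.907). For Nr1d1 they were Ncapd3 (r = 0.978), Brap (0.967), Ezh1 (0.949), Txnip (0.939) and Mta3 (0.934). They were the highest of all genes tested, so their size is partly a result of that choice, and none is on the clock lists used here. Without TMM scaling 4 of the 5 and 3 of the 5 remained. Only genotype means were removed, so a difference between the identification number ranges, as seen for Nr1d1, remains in these coefficients.

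Of 31 further genes of the clock and its liver outputs, 27 were tested, and 2 were higher and 1 lower in KO, where 2.43% of all genes were higher and 2.76% lower. They were close to evenly divided in sign, 15 positive and 12 negative, with a median log2 fold change of 0.03 against 0.0042 over all genes. None of these 27 reached a fold change of 1.5 and passed. Marveld1, a rhythmic gene of many tissues that encodes a membrane protein, had 35.3 to 44.0 CPM in WT and 24.7 to 33.2 CPM in KO (−0.39, adjusted p = 0.0181). Tipin, the partner of Timeless in replication, had 25.1 to 31.0 CPM in WT and 33.2 to 43.4 CPM in KO (0.35, adjusted p = 0.0301), without overlap. Btrc, the F-box protein that marks phosphorylated PER for degradation, had 55.9 to 69.2 CPM in WT and 65.8 to 89.6 CPM in KO, with overlap (0.31, adjusted p = 0.0467). The calls of Tipin and Btrc were lost in 8 and 11 of 20 alternatives, in each case including the GC content and length offsets (0.17 and 0.15), and that of Marveld1 in 1, the lower range alone.

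The other tested genes of this list did not pass. Over all 27 tested genes, KO lay fully above WT for 1 and fully below for 3, beside 3.34% and 3.26% of all genes. An unadjusted p under 0.05 was found for 9 of the 27, beside 3128 of all 14098 genes. Among those short of the threshold, Usp2, a deubiquitinase, had 2.01 to 2.75 CPM in WT and 1.26 to 1.91 CPM in KO, without overlap (−0.48, adjusted p = 0.154). Gys2, the glycogen synthase of the liver, had 158 to 189 CPM in WT and 136 to 157 CPM in KO, also without overlap (−0.22, adjusted p = 0.0647). Por, the electron donor of cytochrome P450 enzymes, differed by −0.36 (adjusted p = 0.0587) and Bhlhe40, a repressor at E-boxes, by 0.36 (adjusted p = 0.117), both with overlap. Cry2, the second cryptochrome, differed by −0.07 (adjusted p = 0.582), Rora, the main ROR receptor of the liver, by 0.06 (adjusted p = 0.829), and the PER kinases Csnk1d and Csnk1e by −0.03 and −0.12. The D-box factors Tef and Hlf, relatives of Dbp, differed by −0.13 and 0.07, and Nfil3, which opposes them, by 0.12. The 4 genes Rorb, Bhlhe41, Fbxl21 and Elovl3 had too few counts to be tested.

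Since Per1 is a direct target of glucocorticoids and of immediate-early signalling, 2 further lists were read. All 14 glucocorticoid-responsive genes were tested, and 1 was higher and 1 lower, beside 2.43% and 2.76% of all genes. Dusp1, a phosphatase of MAP kinases, had 23.4 to 35.2 CPM in WT and 36.6 to 44.8 CPM in KO (0.52, adjusted p = 0.00764). Its call was lost in 1 of 20 alternatives, the lower range alone (adjusted p = 0.194). Cdkn1a, an inhibitor of the cell cycle, had 44.1 to 50.7 CPM in WT and 24.5 to 33.1 CPM in KO (−0.80, adjusted p = 0.000353), past the fold threshold of 1.5 and in all 20 alternatives. The groups did not overlap for either gene. Fkbp5, a chaperone of the glucocorticoid receptor and its classical target, had 144 to 194 CPM in WT and 132 to 143 CPM in KO, also without overlap (−0.26, adjusted p = 0.0568), and it passed in 4 of 20 alternatives. Tsc22d3, a glucocorticoid-induced leucine zipper protein, had 25.6 to 31.4 CPM in WT and 21.5 to 25.5 CPM in KO, without overlap (−0.26, adjusted p = 0.0813). The list's median was −0.18, with 5 positive and 9 negative values. An unadjusted p under 0.05 was found for 8 of its 14 genes, beside 3128 of all 14098. KO lay fully above WT for 1 of the 14 and fully below for 3, beside 3.34% and 3.26% of all genes.

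Of 12 immediate-early genes, 11 were tested and 1 passed, higher, as did 2.43% of all genes. Btg2, an antiproliferative gene, had 79.6 to 105 CPM in WT and 101 to 131 CPM in KO (0.33, adjusted p = 0.0458), a call lost in 9 of 20 alternatives. Ier2 differed by −0.27 (adjusted p = 0.143) and Fos by 0.84 (adjusted p = 0.182). Fos had 1.29 to 4.02 CPM in WT and 1.72 to 6.51 CPM in KO, and the 4 upper-range libraries held its 4 highest values, 4.02 CPM in WT and 3.70 to 6.51 CPM in KO, above the 1.29 to 2.58 CPM of the lower range. The median of the list was 0.10, with 8 positive and 3 negative values. Of its 11 tested genes 4 had an unadjusted p under 0.05, beside 3128 of all 14098 genes.

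The separation by identification number range seen for Nr1d1 was therefore looked for in the 3 lists, after the values were known. It was found for 1 of 27 other clock genes (Nfil3), 2 of 14 glucocorticoid-responsive genes (Mt1 and Mt2) and 1 of 11 immediate-early genes (Fos), each higher in the upper range, where 1.21% of all genes were. Mt1 and Mt2 encode metallothioneins, zinc-binding proteins induced in liver by glucocorticoids and metals. Mt1 had 268 to 369 CPM in the 6 lower-range libraries, 536 CPM in the upper-range WT library and 565 to 742 CPM in the 3 upper-range KO libraries, a range difference of 0.91 on the log2 scale (SE 0.112, adjusted p = 0.00744). Mt2 had 158 to 249 CPM in the lower range, 354 CPM in upper-range WT and 473 to 585 CPM in upper-range KO, a difference of 1.12 (SE 0.152, adjusted p = 0.0128). Gm45774 on the opposite strand covers 73.5% of the exonic bases of Mt2. Over the whole table these were the 2 genes that passed as higher in the upper range, and Spred1, an inhibitor of Ras signalling, was the 1 gene that passed as lower (−0.65, adjusted p = 0.0430). Fos differed by 1.28 (SE 0.253, adjusted p = 0.0941), about as much as Nr1d1 and likewise without passing, and Nfil3, a repressor at D-boxes, by 0.29 (adjusted p = 0.256).

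**Figure D5:**
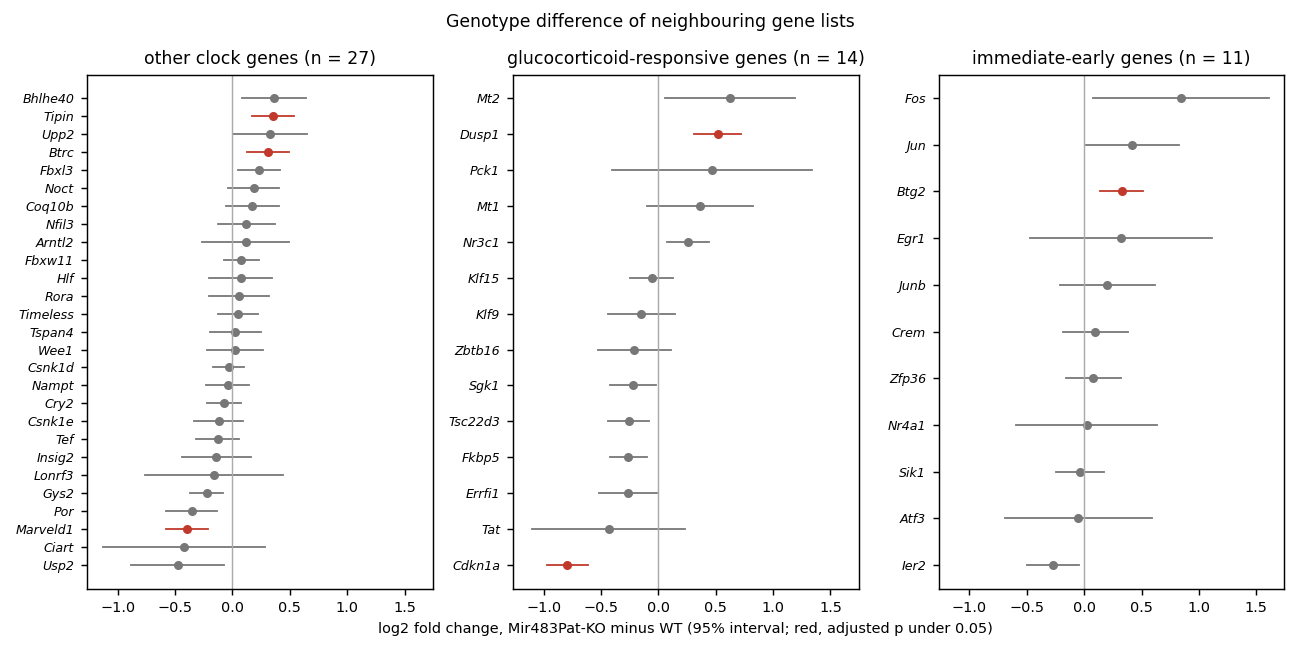
Log2 fold change, KO minus WT, with its 95% interval for the tested genes of 3 lists, each list in its own panel and genes in order of the estimate, with red for an adjusted p under 0.05. Red genes number 3 of 27, 2 of 14 and 1 of 11, beside 2.43% of all genes higher and 2.76% lower. In the first 2 panels the red genes lie on both sides of 0.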

How the data were processed

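Per the labels and the methods of the study, the authors made polyA libraries from total RNA and aligned and counted reads with STAR on GRCm38 (Ensembl genes). The deposited values are raw counts, not normalized. The counting strand and the handling of reads that map to several places are not given in the sources used here. Of 55401 identifiers 55141 matched a symbol. Groups came from the sample labels. In R 4.3.3, edgeR 4.0.16 kept genes with filterByExpr, scaled libraries by TMM (CPM here are on that scale) and tested genotype with the quasi-likelihood F-test, with Benjamini-Hochberg adjustment over the 14098 genes kept. Log2 CPM used a prior count of 2. Passing means an adjusted p under 0.05. Controls were littermates, but which fetuses shared a litter is not given in the sources used here, so p-values measure the spread between these libraries. Positions, exon lengths and 3′ UTRs came from GENCODE M21 (GRCm38), and promoters and microRNAs from RefSeq (GRCm38.p6). The low counts of Dbp, Nr1d1 and Npas2 limit their precision, and floors cover counting error only. The common biological coefficient of variation was 0.111.

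The members, lists and tests were chosen with earlier results of these data known. All 10 members were named. Of the 3 further lists, genes that passed were named, with up to 3 of smallest p where fewer than 3 passed; the other genes given from those lists were chosen after their values were seen. For Arntl and Nr1d1 the 5 genes of highest residual r were named. Genes withheld for evaluation were left out of the lists and are not reported here. Marker genes of 6 cell types were summed as CPM. Correlations used exact permutations of residuals within genotype. The alternatives were RLE size factors, DESeq2 1.42.0, limma-voom (limma 3.58.1), a robust fit, no filter, a minimum of 10 counts per library, a replicate block, a covariate for the identification number range, the lower range alone, GC content and length offsets, and fits without 1 library. The test between ranges was added after the values were seen. The scripts were tested on simulated data. Figures were drawn with Python 3.11.15 and matplotlib 3.10.9.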

Additional observations from a re-analysis of the deposited data

Results flagged for a closer look

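Each of 48 groups of 5 values was checked for a library that stood apart, of which chance marks about 1 in 20. There was 1, Tipin in KO replicate 4, at 43.4 CPM against 35.5 CPM in the next library, a gap of 0.781 of the range of its group where 0.71 is the limit for 5 values. Without that library Tipin was higher by 0.27 on the log2 scale and did not pass (adjusted p = 0.0862). None of the 10 clock genes was marked in either genotype.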

How the results depend on the processing

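Of the log2 fold changes of the 20 named genes over the alternatives, 344 kept their direction and their side of the threshold, 39 no longer passed, 9 newly passed and 6 changed sign. Those 6 were Clock in the lower identification number range alone (−0.024), under GC content and length offsets (−0.11), without WT replicate 4 (−0.052), without WT replicate 5 (−0.042) and without KO replicate 3 (−0.037), and Per3 under the offsets (0.0077). Clock ranged from −0.052 to 0.081 with 1 library left out.

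The 731 genes passing became 1160 with DESeq2, 1258 without a filter, 1338 with the replicate block, 1189 with the range as a covariate and 23 in the lower range alone, which holds 6 libraries, and 279 to 863 with 1 library left out, with 425 and 403 without WT replicates 4 and 5 and 396, 417 and 279 without KO replicates 2, 3 and 4. The larger side also changed. More genes were higher than lower with the replicate block (742 against 596), the range covariate (646 against 543) and no filter (633 against 625). Without KO replicate 3 or 4 fewer were higher than lower (119 against 298 and 87 against 192). Without a filter 1 clock member was higher (Nr1d1). The 2 members lower became 0 in the lower range alone, 0 under the offsets and 1 to 3 with 1 library left out, 1 without WT replicate 4 or 5 or KO replicate 3, 4 or 5. Of the other clock genes 5 passed with DESeq2, 6 without a filter, 6 with the block, 0 in the lower range and 1 to 4 with 1 library left out, with 1 without WT replicate 3 or 5 or KO replicate 4. Of the glucocorticoid-responsive genes 6 passed without a filter, 6 with the block, 1 in the lower range and 2 to 3 with 1 library left out. Of the immediate-early genes 3 passed without a filter, 0 with the range covariate, 0 in the lower range and 0 to 1 with 1 library left out, with 0 without WT replicate 2, 3 or 5 or KO replicate 2, 3, 4 or 5. The cause of these changes was not tested. The lower range also holds fewer libraries, and the part this played was not tested.

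The range difference of Nr1d1 stayed between 0.93 and 1.24 with each library left out, without passing (adjusted p = 0.0502 to 0.277), and the count of members passing it stayed at 0. Correlations passed in 0 of 45 pairs without TMM scaling and with a prior count of 0.5, and the balance of the arms differed by 0.09 without TMM scaling.

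Same-numbered WT and KO libraries deviated together at a mean r of 0.0871 (−0.0496 to 0.261) and others at −0.0217, so the replicate number was not taken as a pairing. With the replicate block Per1 (−0.42, adjusted p = 0.00334), Per2 (−0.34, adjusted p = 0.0115) and Cry1 (−0.42, adjusted p = 0.0323) passed as lower.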
